A study of Rattus norvegicus with 18 samples.

Results

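Proteasome genes were taken as the genes whose single symbol in the platform annotation begins with Psm, a letter from a to g and a digit. They were 43 of the 10411 genes with a probe set of 1 symbol, and all 43 were among the 7726 genes that passed the filter on low signals. A gene with several probe sets was represented by the one of highest mean value. By known role they were 7 subunits of the α ring, 4 structural β subunits, 2 standard and 3 immunoproteasome catalytic β subunits, 5 ATPases and 12 other genes named for the 19S particle, 3 activators, 1 inhibitor and 4 assembly chaperones of the core (Psmg). Of those 12, Psmd5, Psmd9 and Psmd10 are known as assembly chaperones of the particle's base rather than lasting subunits, and they are counted among the 17 genes of the 19S particle below. The other 2, Psmc3ip (a cofactor of meiotic recombination) and Psme3ip1 (a partner of the activator PA28γ), share the name but are not subunits. Psmb6 and Psme3 were measured only by probe sets that also list other genes, so they are not among the 43.

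RNA of whole lungs from male Sprague-Dawley rats was measured on 18 Affymetrix 1-colour arrays, a single lung on each. In ventilated, anesthetized rats with a tracheotomy and a left thoracotomy, the left hilum was clamped for 2 h, and left lungs were collected after 30 min (n = 3) or 3 h (n = 3) of restored flow. The unclamped right lungs of these operated rats were taken at 30 min (n = 3) and 3 h (n = 3), and 6 normal lungs taken at sacrifice were the controls. Every clamped lung was a left lung, there was no group operated on without a clamp, and the side of the control lungs and the age of the rats are not given in the sources used here. Clamp and side therefore cannot be told apart between left and right, nor can anesthesia, ventilation, surgery and time be told apart from the clamp against control.

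The proteasome degrades proteins marked with ubiquitin. Its 20S core is a barrel of α and β rings, with the cutting sites inside on Psmb5, Psmb6 and Psmb7. The 19S particle sits on the barrel end, recognises ubiquitin and unfolds the substrate with a ring of ATPases. Interferon-γ replaces the 3 standard cutting subunits with Psmb8, Psmb9 and Psmb10, and this immunoproteasome favours peptides that fit class I molecules. When proteasomes are overloaded, the factor NRF1, encoded by Nfe2l1, raises most subunit genes together through antioxidant response elements in mammalian cells. In the lung, ischemia and reperfusion expose proteins to oxidants, and damaged proteins are proteasome substrates.

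The 250 bases before the transcription start are shown for 4 genes, from RefSeq on the rat assembly GRCr8. Among them Psme4, Psmd13 and Psmd9 rose in both the clamped and the unclamped lung at 3 h. Psmb10 is shown as an immunoproteasome gene that did not pass the test. Capitals mark motif matches on either strand. The motifs searched were the antioxidant response element core TGACNNNGC, the CCAAT box CCAAT, the heat shock element GAANNTTC, the interferon response element (GAAA, any 2 bases, then GAAA) and the GC box GGGCGG.
Psme4, chr14:108706393-108706642, + strand: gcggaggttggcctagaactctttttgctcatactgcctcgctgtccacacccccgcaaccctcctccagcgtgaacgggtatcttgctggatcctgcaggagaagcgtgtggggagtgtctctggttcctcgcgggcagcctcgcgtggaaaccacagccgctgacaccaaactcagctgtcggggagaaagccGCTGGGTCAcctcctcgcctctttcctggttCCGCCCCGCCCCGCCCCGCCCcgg
Psmd13, chr1:205393998-205394247, + strand: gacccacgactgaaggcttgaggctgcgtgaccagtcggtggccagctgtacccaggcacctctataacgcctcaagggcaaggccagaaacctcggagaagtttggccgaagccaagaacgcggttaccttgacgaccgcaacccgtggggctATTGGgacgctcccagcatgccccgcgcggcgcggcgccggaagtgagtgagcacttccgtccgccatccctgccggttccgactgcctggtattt
Psmd9, chr12:39018265-39018514, - strand: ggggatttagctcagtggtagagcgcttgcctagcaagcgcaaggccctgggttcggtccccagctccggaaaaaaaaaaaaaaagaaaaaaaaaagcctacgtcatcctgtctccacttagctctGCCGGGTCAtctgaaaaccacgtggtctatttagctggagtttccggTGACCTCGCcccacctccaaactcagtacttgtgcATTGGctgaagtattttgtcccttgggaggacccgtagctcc
Psmb10, chr19:50743293-50743542, - strand: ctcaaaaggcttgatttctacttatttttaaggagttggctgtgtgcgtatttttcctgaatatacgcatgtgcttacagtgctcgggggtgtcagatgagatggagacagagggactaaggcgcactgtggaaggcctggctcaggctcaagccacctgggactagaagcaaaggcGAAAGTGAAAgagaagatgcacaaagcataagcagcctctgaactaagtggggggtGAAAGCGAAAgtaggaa

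The Psme4 promoter held 1 antioxidant element core, 55 to 47 bases before the start, and 4 GC boxes in a row, each sharing 1 base with the next. Psmd9 held 2 such cores, at 124 to 116 and 77 to 69 bases, and a CCAAT box. Psmd13 held a CCAAT box at 96 to 92 bases, and Psmb10 held interferon elements at 73 to 64 and at 17 to 8 bases before the start. Promoters were found for 39 of the 41 members other than Psmc3ip and Psme3ip1, all but Psma7 and Psmd6. The antioxidant core lay in 6 of these 39 promoters (15.4%), against 12.9% of the promoters of 6458 tested genes and 10.1% of all 33469 promoters of the same length. The 6 were those of Psma3, Psmb2, Psmb5, Psmd1, Psmd9 and Psme4. Psmc1, Psmc2, Psmd3, Psmd8 and Psmd13, which also rose in the left lungs at 3 h, did not hold it. The CCAAT box lay in 19 (48.7%, against 35.6% and 34%) and the GC box in 27 (69.2%, against 61.1% and 30.5%). The interferon element lay in 5 (12.8%, against 2.54% and 3.41%), those of Psma4, Psmb10, Psmb3, Psmd7 and Psme2. The other immunoproteasome genes, Psmb8 and Psmb9, did not hold it. The heat shock element lay in 3 (7.69%, against 4.69% and 7.23%). A match describes the letters of the window and does not show binding.

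The unit of every level below is the deposited probe set signal on a linear scale. Differences are log2 differences of group means of log2(signal + 25) with limma standard errors, and a gene was counted as risen or fallen at an adjusted p under 0.05 (limma, Benjamini-Hochberg over 10533 probe sets). All 7 lung epithelial markers were measured, and Sftpc, a surfactant protein gene, lay between 10573.4 and 16252.3 over the 18 arrays. The median signal of an array was 232.3 to 283.8. The ratio of 3′ to 5′ actin signal, which rises as RNA degrades, was 4.81 and 2.3 in replicates 1 and 3 of the left lungs at 30 min and 2.93 in replicate 3 of the right lungs at 30 min, against 1.31 to 1.78 on the other 15 arrays. Whole lung was measured, so fewer cells of a type and less RNA per cell cannot be told apart.

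At 3 h after the clamp, 7 of the 43 proteasome genes rose and 4 fell in the left lungs against control, 16.3% and 9.3% of the members, where 13.5% and 24.1% of all tested genes did. The share that rose was near that of all genes. The 7 risen genes were the activator Psme4 and 6 genes of the 19S particle, and none was a subunit of the 20S core. Those that fell were the inhibitor Psmf1, the assembly chaperones Psmg1 and Psmg2, and Psmc3ip. The median difference of the 43 was 0.10 and lay 0.23 above the median of all tested genes, which was -0.13. When arrays were centred on their medians, the median of all probe sets stood at 0.04, against -0.12 in the values as deposited. Then 18 members rose and 2 fell (41.9% and 4.65%), where 19.5% and 12.4% of all tested genes did. After quantile normalization 7 rose and 3 fell (16.3% and 6.98%), where 14.6% and 18.8% of all tested genes did. No core gene other than the immunoproteasome subunits stood higher there than as deposited (Psma6 at 0.11, against 0.27). In the right lungs at 3 h, 10 members rose and 0 fell (23.3% and 0%), where 7.75% and 12.6% of all tested genes did. Of these 10, 5 were 20S core subunits, and the median of the 43 was 0.18, against -0.05 over all tested genes. With arrays centred on their medians 15 members rose and 0 fell there (34.9% and 0%), where 10.7% and 8.15% of all tested genes did. After quantile normalization 10 rose and 0 fell (23.3% and 0%), where 9.09% and 11.1% of all tested genes did. By limma without adjustment, 17 members lay higher and 3 lower in the right lungs at 3 h at a p under 0.05. Together these were 46.5% of the members, against 33.9% of all tested genes. Counted by overlap alone, 8 members had all 3 left lungs at 3 h above all controls and 4 had them below, where 13.8% and 23% of all tested genes did. For the right lungs at 3 h these were 13 and 2 members, where 10.4% and 14.9% of all genes did.

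At 30 min fewer members passed. In the left lungs 2 rose and 2 fell (4.65% each), against 8.65% and 9.51% of all tested genes, and the member median was 0.00. On the right 2 rose and 1 fell (4.65% and 2.33%), against 5.93% and 6.3%, and the median was 0.03. By overlap alone, 4 members lay wholly above and 5 wholly below the controls in the left lungs at 30 min, against 12% and 14.5% of all genes, and 5 and 1 did in the right lungs, against 9.29% and 11.4%. Across the 4 operated groups, which share the 6 controls, 27 members passed in no group, 9 in 1 group, 4 in 2, 1 in 3 and 2, Psme4 and Psmd13, in all 4. The same counts over all tested genes are not given, so passing in all 4 is not shown to be unusual. Changes were small: the largest were 1.76-fold up for Psme4 and 1.48-fold down for Psmf1, both in the left lungs at 3 h.

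**Figure D1:**
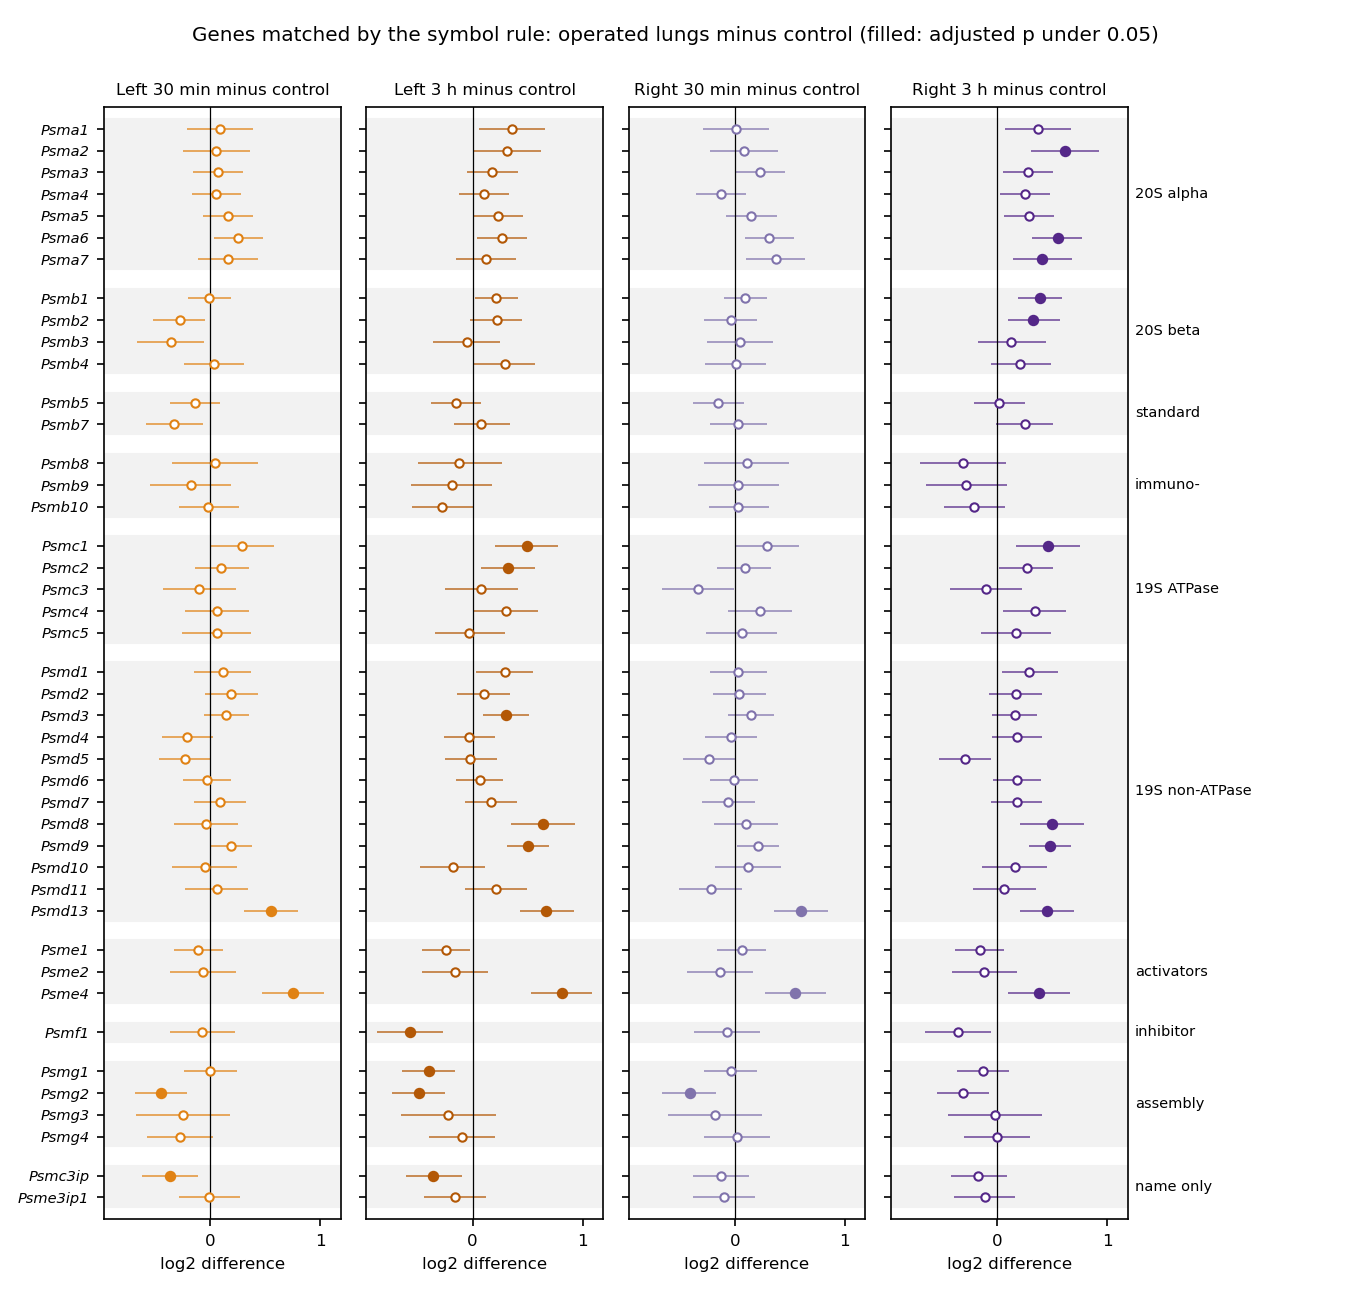
Log2 difference from control for each of the 43 proteasome genes, ordered by role, in the left and right lungs at 30 min and 3 h (points, with 95% interval lines; filled points passed adjusted p under 0.05; n = 3 operated lungs per group and 6 controls). At 3 h most 20S core and 19S points lie right of 0 on both sides, Psme4 lies right of 0 in all 4 panels, and Psmf1 and the assembly chaperones Psmg1 and Psmg2 lie left of 0.

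The α ring, made of Psma1 to Psma7, forms the ends of the barrel and the gate through which substrates enter. All 7 of its genes had a positive difference in both lungs at 3 h, 0.10 to 0.36 in the left lungs and 0.25 to 0.62 in the right. Of the 7, 0 passed on the left, where limma's adjusted p was 0.059 for Psma6 and 0.11 for Psma2, and 3 passed on the right. Psma2 had signals of 1774.9, 2374.9 and 1522.6 in the left lungs at 3 h and of 2161.1, 2900.2 and 1973 in the right lungs, against 1461.6 to 1552.9 (median 1473.5) in control lungs. The left lungs overlapped the controls through replicate 3, and the right lungs lay above every control. The difference was 0.31 ± 0.15 on the left and 0.62 ± 0.15 on the right (1.54-fold, adjusted p = 0.0066 by limma).

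Psma6 had signals of 3453.1, 3880.2 and 3380.5 in the left lungs at 3 h and of 3740, 4454.6 and 4901.7 in the right, against 2728.7 to 3175.5 (median 2973) in control lungs. Every operated lung of all 4 groups lay above every control for this gene, and the right lungs at 3 h passed the test (0.55 ± 0.11, adjusted p = 0.0018 by limma). Psma7 rose in the right lungs at 3 h by 0.41 ± 0.13 (adjusted p = 0.029 by limma), from signals of 1756.2, 2165.8 and 1778.7, against 1101.7 to 1598.7 in control lungs. The groups did not overlap, and control replicate 1, at 1101.7, lay well below the other controls (1412.4 or more). Without that control the Psma7 difference no longer passed.

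The structural β subunits Psmb1 to Psmb4 hold the inner rings together. Psmb1 and Psmb2 rose in the right lungs at 3 h, by 0.39 ± 0.09 (adjusted p = 0.0075 by limma) and 0.33 ± 0.11 (adjusted p = 0.043 by limma). Psmb1 had signals of 2983.9, 2949.9 and 2347.8 in the left lungs at 3 h and of 3052.2, 3281.9 and 2984.6 in the right, against 2202.3 to 2429.3 (median 2397.4) in control lungs. In the left lungs replicates 1 and 2 stood clear of the controls while replicate 3 lay among them, and all right lungs stood clear. Psmb2 had signals of 1850.6, 1877.4 and 1674.4 in the left lungs and of 1877.3, 1936.2 and 2045.6 in the right lungs at 3 h, against 1443.9 to 1705.1 in control lungs. Only left replicate 3 lay within the control range. The right-side call for Psmb2 against control was lost under 11 of 19 alternative settings. Psmb3, the lowest of the 4 on both sides, stood at -0.05 on the left and 0.13 on the right.

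Over the 13 core genes without the immunoproteasome subunits, 0 passed in the left lungs at 3 h, with a median of 0.21, and 5 rose and 0 fell in the right lungs, with a median of 0.29. In the left lungs the median core gene stood at 0.22, 0.28 and -0.01 from the control mean, so replicate 3 was at the level of the 6 controls, which ran from -0.04 to 0.05. It stood at 0.25, 0.43 and 0.32 in the right lungs. The 17 genes of the 19S particle were also lowest in that replicate, at 0.26, 0.31 and 0.06 in the left lungs, against -0.03 to 0.04 in control lungs. Without left replicate 3, 17 members passed at 3 h in the left lungs in place of 11, and without replicate 1, 6 passed. On the right side 5 passed without replicate 2 and 6 without replicate 3, in place of 10.

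**Figure D2:**
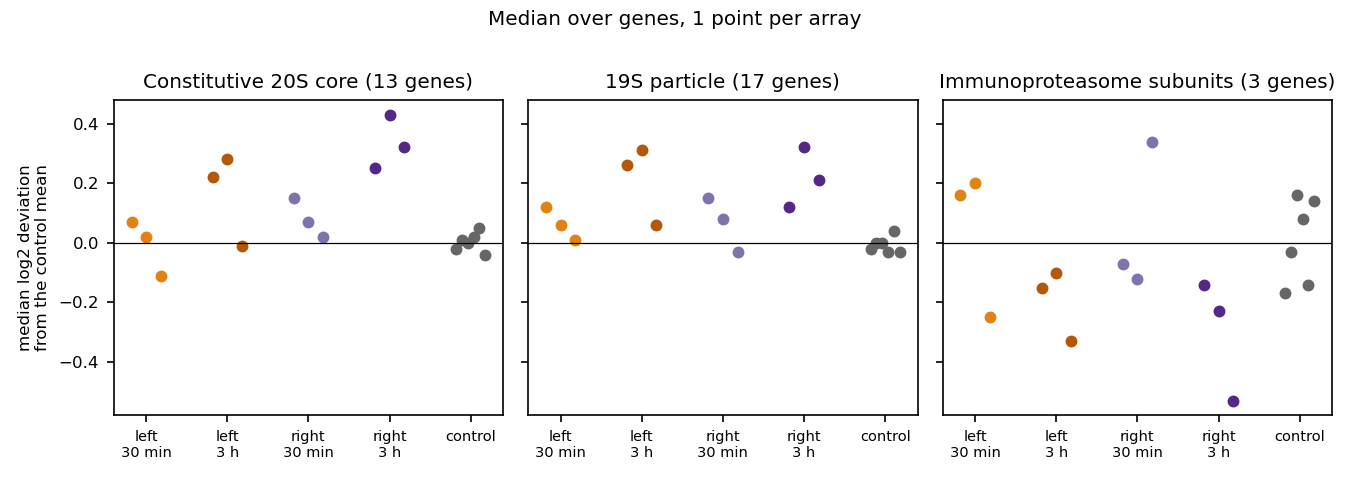
Median log2 deviation from the control mean over the genes of the 20S core (13), the 19S particle (17) and the immunoproteasome catalytic subunits (3), 1 point per lung, by group. Core medians lie above the controls in all 3 right lungs and 2 of 3 left lungs at 3 h, and 19S medians in all 6 lungs at 3 h. The immunoproteasome medians of the 6 lungs at 3 h lie between -0.53 and -0.1, in part within the control range of -0.17 to 0.16.

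Heart muscle signal differed between these groups. Of 8 cardiac markers 7 were measured, and their summed signal was 227.3 to 241.5 in the left lungs and 1928 to 9934 in the right lungs at 3 h, against 224.7 to 3325 in control lungs. With the mean of these markers as a covariate, an alternative added after seeing the data, 5 members rose in the right lungs at 3 h in place of 10. Psma2, Psma6, Psmb1, Psmd13 and Psmd9 passed in that fit, and Psma7, Psmb2, Psmc1, Psmd8 and Psme4 did not. Neutrophil markers, 5 of 7 measured, summed to 7950 to 18160 in the left and 7981 to 11720 in the right lungs at 3 h, against 1481 to 3729 in control lungs. The part of neutrophil RNA in these differences was not tested.

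The immunoproteasome subunits differed in sign from most of the core, a contrast that was not itself tested. Psmb8, Psmb9 and Psmb10, which replace Psmb5, Psmb6 and Psmb7, passed in no comparison, and at 3 h all 3 had negative differences on both sides, while 11 of the 13 other core genes had positive ones on the left and all 13 on the right. Negative differences were the more frequent on the left, in 4864 of the 7726 tested genes, and the median of the 3 lay 0.06 below that of all tested genes on the left (-0.06) and 0.23 below it on the right (-0.23). With each array centred on its median, Psmb8, Psmb9 and Psmb10 stood at 0.05, -0.03 and -0.12 on the left, so the sign of Psmb8 turned there, and at -0.22, -0.20 and -0.12 on the right. Psmb8 had signals of 1024, 1217.2 and 923.3 in the left lungs at 3 h and of 1027.4, 964.8 and 767.9 in the right, against 821.2 to 1490.4 (median 1182.8) in control lungs. The groups overlapped, and the differences were -0.12 ± 0.18 on the left (adjusted p = 0.65 by limma) and -0.31 ± 0.18 on the right (adjusted p = 0.25). Psmb9 had signals of 878.6, 914.1 and 776.1 in the left lungs at 3 h and of 956.1, 798.2 and 668.3 in the right, against 868.1 to 1147.5 (median 958.5) in control lungs. Its difference was -0.19 ± 0.18 on the left and -0.28 ± 0.18 on the right, again with overlap.

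Psmb10 had signals of 690.3, 732.9 and 533.3 in the left lungs at 3 h and of 651.5, 678.3 and 716.6 in the right, against 706.4 to 927.9 (median 785.8) in control lungs. Most lungs at 3 h lay below the lowest control, with overlap on each side. The differences were -0.28 ± 0.13 on the left (adjusted p = 0.1 by limma) and -0.21 ± 0.13 on the right (adjusted p = 0.28). At 30 min the 3 differences ran from -0.18 to 0.04 in the left lungs and from 0.03 to 0.11 in the right. The intervals allow for sizable changes: for Psmb8 in the right lungs at 3 h the 95% interval ran from -0.70 to 0.08. The standard subunits did not pass either, at -0.15 ± 0.11 and 0.02 ± 0.11 for Psmb5 and 0.08 ± 0.12 and 0.25 ± 0.12 for Psmb7 in the left and right lungs at 3 h.

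The regulator PA28αβ, which opens the core and is also induced by interferon-γ, had the same sign at 3 h as the immunoproteasome subunits. Psme1, its α chain, had signals of 2428.5, 2895.4 and 2329.3 in the left lungs and 2715.5, 2561.8 and 2834 in the right lungs at 3 h, against 2721.1 to 3385.3 in control lungs. The groups overlapped, and the difference was -0.24 ± 0.10 on the left (adjusted p = 0.075 by limma) and -0.16 ± 0.10 on the right. On the left it was -0.39 after quantile normalization (adjusted p = 0.0068 by limma) and -0.08 after median centring. Psme2, its β chain, stood at -0.16 ± 0.14 and -0.12 ± 0.14. In the RefSeq gene table of GRCr8 Psmb8 and Psmb9 lie among the class I transporter genes, in the order Tap2, Psmb8, Tap1, Psmb9, and only Emc9 lies between Psme1 and Psme2.

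**Figure D3:**
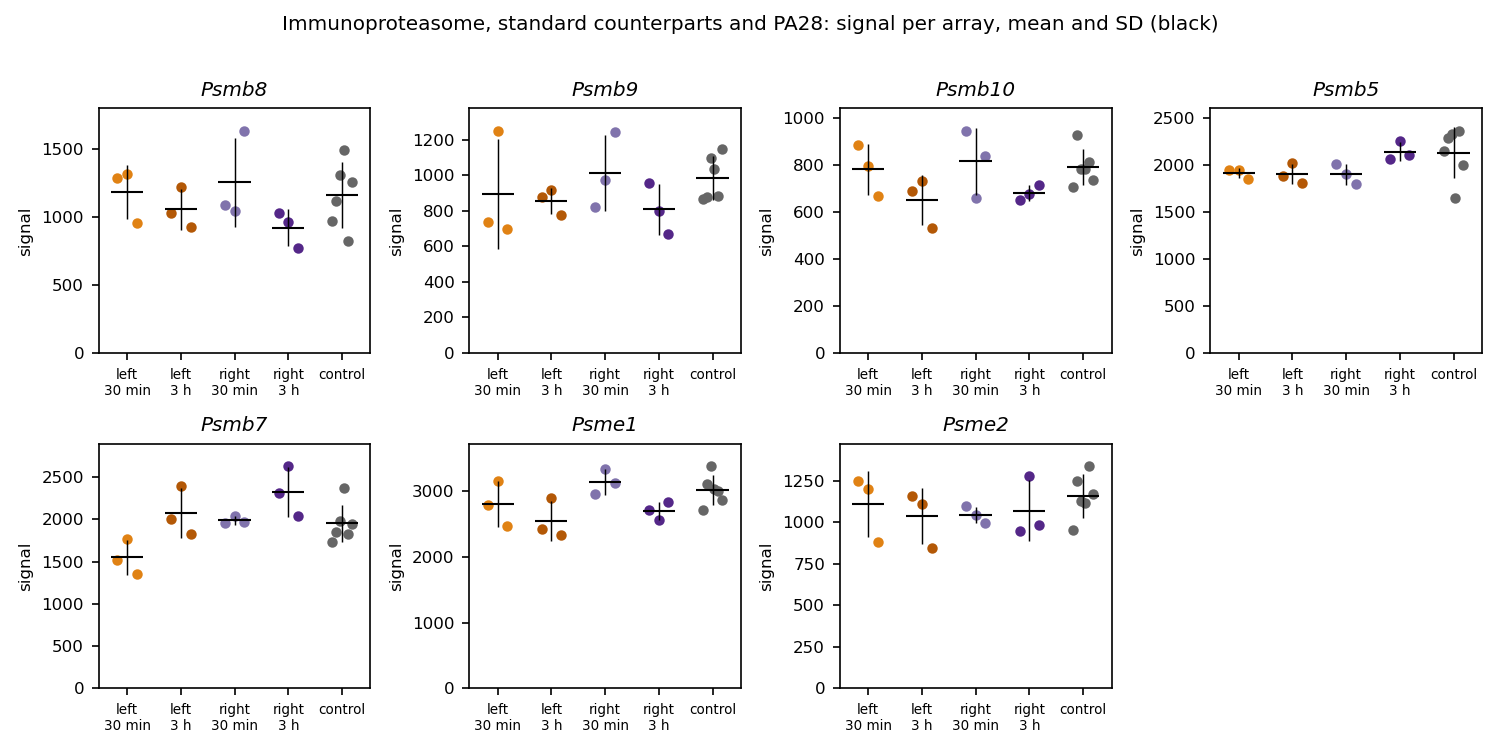
Signals of Psmb8, Psmb9 and Psmb10, of the standard subunits Psmb5 and Psmb7 and of the PA28 chains Psme1 and Psme2 in each lung, by group, with the mean and SD (linear axes from 0; n = 3 per operated group and 6 controls). For these 7 genes the points of the operated groups overlap those of the control lungs.

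Lymphocytes are known to carry much immunoproteasome, and their markers were lower at 3 h. All 8 T and NK cell markers were measured and none was at 0, and their summed signal was 1315 to 2365 in the left and 1466 to 1534 in the right lungs at 3 h, against 2337 to 2946 in control lungs. Of the 6 that passed the filter, Cd3d, Cd3g, Cd8a and Lck fell on both sides at 3 h. At 30 min the sum was 1631 to 2997 in the left and 1480 to 2223 in the right lungs, where Lck fell on the left and Cd3d, Cd8a and Lck on the right. The immunoproteasome differences in those right lungs were 0.03 to 0.11, with standard errors of 0.13 to 0.18. Of 4 B cell markers 1 was measured, Cd79b, and it fell in every operated group. Its signal at 3 h was 45.04 to 142.2 in the left and 55.6 to 254.3 in the right lungs. At 30 min it was 45.08 to 118 and 46.26 to 106.9, against 230.4 to 409.6 in control lungs. The 3 general leukocyte markers summed to 2678 to 6052 in the left and 3257 to 4117 in the right lungs at 3 h, against 3967 to 5162 in control lungs, and none passed. The part of these cells in the immunoproteasome values was not tested.

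Of 17 genes of the 19S particle, 6 rose in the left lungs at 3 h (35.3%) and 4 in the right (23.5%), where 13.5% and 7.75% of all tested genes rose, and 0 fell, where 24.1% and 12.6% of all did. The median was 0.21 on the left and 0.18 on the right. Psmd13, a lid subunit, had signals of 893.4, 841.7 and 698.2 in the left lungs at 3 h, 850.8, 763.6 and 624.9 in the left at 30 min, 672, 792.4 and 617.2 in the right at 3 h and 772.7, 690.8 and 848.1 in the right at 30 min, against 462.7 to 521.6 (median 499.7) in control lungs. All 12 operated lungs lay above all 6 controls. The difference was 0.67 ± 0.12 in the left lungs at 3 h (1.59-fold, adjusted p = 0.00035 by limma) and 0.45 to 0.60 in the other 3 groups.

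Psmd8, another lid subunit, passed on both sides at 3 h and on neither at 30 min. It had signals of 1331.8, 1548.7 and 1023.4 in the left lungs at 3 h and 1157.7, 1244.6 and 1069.5 in the right, against 742.1 to 897.6 (median 810.6) in control lungs. All 6 lungs at 3 h lay above the controls, by 0.64 ± 0.14 on the left (1.56-fold, adjusted p = 0.0018 by limma) and 0.50 ± 0.14 on the right (adjusted p = 0.017). At 30 min the left lungs had 764.7, 844.8 and 754.4, inside the control range. The right lungs at 30 min ran from 661.8 to 1014.1 (median 983.8), beyond the control range at both ends.

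Psmd9 is a chaperone that helps to build the ATPase ring and is not kept in the finished particle. It had signals of 529.6, 462.9 and 450 in the left lungs at 3 h and 454.5, 512.4 and 455.5 in the right, against 307.5 to 349 (median 332.2) in control lungs. The groups were well apart, and the difference was 0.50 ± 0.09 on the left (adjusted p = 0.00055 by limma) and 0.48 ± 0.09 on the right (adjusted p = 0.0014). At 30 min every operated lung also lay above every control, at 0.19 ± 0.09 on the left and 0.21 ± 0.09 on the right, without passing. The other 2 chaperones of this base, Psmd5 and Psmd10, did not share this, at -0.02 and -0.18 on the left and -0.29 and 0.16 on the right at 3 h.

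Among the ATPases, which unfold the substrate, Psmc1 rose on both sides at 3 h. It had signals of 1278.3, 1422.4 and 1034.5 in the left lungs and 1106.7, 1177.7 and 1359.6 in the right, against 777.7 to 1008.2 (median 836) in control lungs. No lung at 3 h lay within the control range, and the difference was 0.49 ± 0.14 on the left (adjusted p = 0.0099 by limma) and 0.46 ± 0.14 on the right (adjusted p = 0.024). Psmc2 (0.32 ± 0.12, adjusted p = 0.038 by limma) and Psmd3, a lid subunit (0.30 ± 0.10, adjusted p = 0.023), rose in the left lungs at 3 h. Psmc2 overlapped the controls through replicate 3, at 1785.6 against a highest control of 1986.5, and its call was lost under 10 of 19 alternative settings. Psmd11, a lid subunit with 2 probe sets, did not pass by the one of higher mean (0.21 ± 0.13) and rose by the other (0.47 ± 0.13, adjusted p = 0.0073 by limma) in the left lungs at 3 h.

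Psme4, which encodes the activator PA200, had the lowest p of the members in the left lungs at both times. It had signals of 1738.6, 1417.8 and 1229.2 in the left lungs at 3 h, 1441.3, 1373 and 1332.7 in the left at 30 min, 1125.8, 1027.2 and 1049.2 in the right at 3 h and 1389.5, 1132.6 and 1091.5 in the right at 30 min, against 663 to 1006.3 (median 822.8) in control lungs. All operated lungs lay above all controls, the right lungs at 3 h by the least. The difference was 0.81 ± 0.13 in the left lungs at 3 h (adjusted p = 0.00023 by limma), 0.75 ± 0.13 in the left at 30 min (adjusted p = 0.00094), 0.55 ± 0.13 in the right at 30 min (adjusted p = 0.013) and 0.38 ± 0.13 in the right at 3 h (adjusted p = 0.049). The call on the right at 3 h was lost under 13 of 19 alternative settings.

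The 3 probe sets of Psme4 disagreed. A second one gave 0.78 in the left lungs at 3 h (adjusted p = 0.0032 by limma) and 0.50 in the left at 30 min, but 0.16 and 0.17 in the right lungs at 3 h and 30 min, with no call in these last 3. The third passed in no group and stood at -0.05 in the left lungs at 3 h. By the mean of the 3 probe sets the calls in the right lungs were lost at both times.

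**Figure D4:**
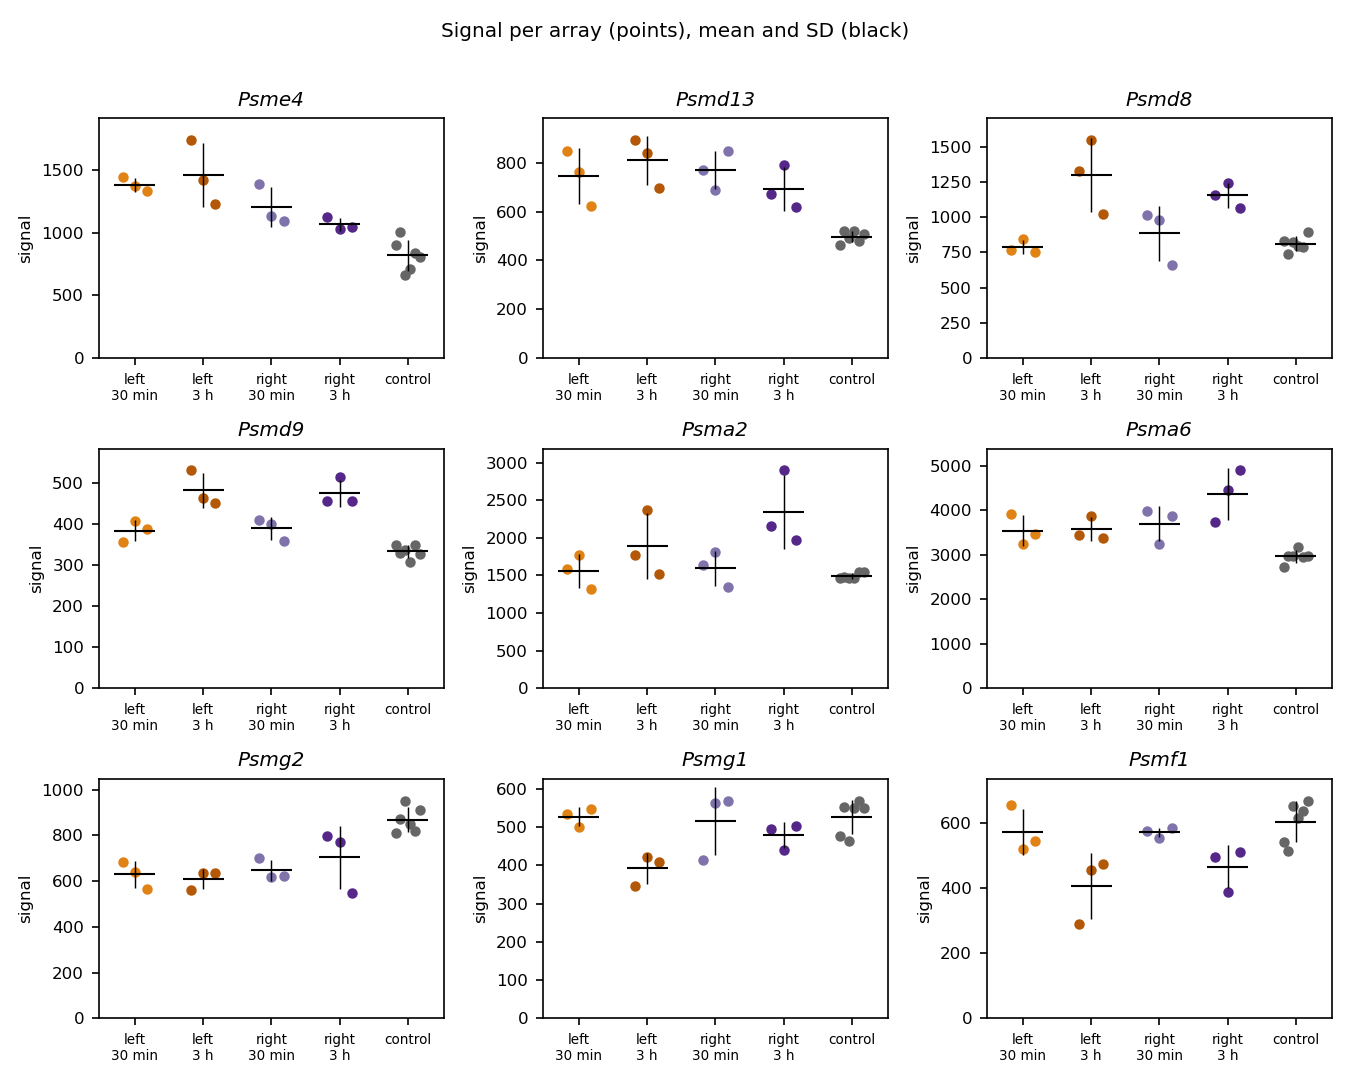
Signals of 9 proteasome genes that passed against control in at least 1 group, in each lung, by group, with the mean and SD (linear axes from 0; n = 3 per operated group and 6 controls). Psme4, Psmd13, Psma6 and Psmd9 lie above the controls in all 12 operated lungs, and Psmd8 in all 6 lungs at 3 h. Psmf1 lies below the controls in the left and right lungs at 3 h.

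Psmf1 encodes PI31, known as an inhibitor of the 20S core in vitro. It had signals of 290.9, 453.9 and 474.7 in the left lungs at 3 h and 495.8, 389.1 and 510.3 in the right, against 513 to 668.6 (median 626.4) in control lungs. All 6 lungs at 3 h lay below every control. Psmf1 fell in the left lungs (-0.57 ± 0.14, adjusted p = 0.0051 by limma) and stood at -0.36 ± 0.14 in the right, where the adjusted p was 0.077. At 30 min the differences were -0.08 on the left and -0.07 on the right. Without left replicate 1, the lowest, the left call was lost.

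Psmg1 and Psmg2 form a pair of chaperones that assembles the α ring. Psmg2 had signals of 560.1, 636.8 and 636 in the left lungs at 3 h, 683.9, 639.8 and 565.3 in the left at 30 min, 795.2, 770.1 and 546.2 in the right at 3 h and 700.8, 617.6 and 620.8 in the right at 30 min, against 811.8 to 952.1 (median 860.3) in control lungs. All 12 operated lungs lay below all controls. Psmg2 fell in the left lungs at 3 h (-0.49 ± 0.12, adjusted p = 0.0034 by limma) and 30 min (-0.45 ± 0.12, adjusted p = 0.011) and in the right at 30 min (-0.41 ± 0.12, adjusted p = 0.026), and stood at -0.31 ± 0.12 in the right at 3 h (adjusted p = 0.064).

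Its partner Psmg1 passed in 1 group, the left lungs at 3 h, where signals were 346.9, 423.1 and 407.7, against 463.5 to 569 (median 548.9) in control lungs. The groups did not overlap (-0.40 ± 0.11, adjusted p = 0.011 by limma), and the call was lost under 3 of 19 alternative settings, median centring and quantile normalization among them. Psmg3 and Psmg4, the second pair, passed in no group. Psmc3ip fell in the left lungs at 3 h (-0.36 ± 0.12, adjusted p = 0.029 by limma) and 30 min (-0.37 ± 0.12, adjusted p = 0.042), and the first call was lost under 8 and the second under 13 of 19 alternative settings. Psme3ip1 passed in no group.

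The clamped lung was then set against the unclamped lung. By limma 0 of 43 members passed between left and right lungs at 3 h, where 1.75% of all tested genes were higher and 0.621% lower on the left. An unadjusted p under 0.05 was found for 4 members (9.3%), against 18.1% of all tested genes. The lowest adjusted p was 0.15, for Psme4, at 0.43 ± 0.15, with no overlap between the left and right lungs. The 95% intervals of the 43 differences reached from -0.69 to 0.75. Of the 13 core genes 12 had a lower mean on the left than on the right, with a median of -0.17, against -0.07 over all tested genes, while the 19S median was 0.02. At 30 min 0 passed by limma, where 0.0518% of all tested genes did in either direction, and 2 had an unadjusted p under 0.05 (4.65%, against 8.34% of all tested genes). As for whether the left-right gap itself changed between the times, where 0.233% of all genes passed, 0 members passed. For that change 0 had an unadjusted p under 0.05, against 7.07% of all tested genes.

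Over time, 2 members rose in the left lungs at 3 h against 30 min, where 1.23% of all tested genes rose and 1.84% fell. Psmd8 was higher by 0.69 ± 0.16 (adjusted p = 0.03 by limma), and Psmb2 by 0.50 ± 0.13 (adjusted p = 0.044), with means of 1801 ± 110 at 3 h and 1284 ± 261 at 30 min (SD, n = 3 each). The lungs of the 2 times did not overlap for either gene. The left group at 30 min holds the array of highest actin ratio, on which Psmb2 was lowest at 1004.8. With the actin ratio as a covariate over all 18 arrays, 0 members passed between these 2 times. In that fit 1 member, Psme4, passed in the left lungs at 30 min against control in place of 4. Leaving out the arrays of high ratio leaves 1 left lung at 30 min, so no count is given for that setting. The part of RNA quality in these calls was not tested. In the right lungs 0 passed by limma between 3 h and 30 min, where 0.194% of all tested genes did. An unadjusted p under 0.05 was found for 7 members (16.3%, against 12.4% of all tested genes), all higher at 3 h. Their lowest adjusted p was 0.18, for Psma2.

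Genes that work with the proteasome were counted from a list of 31, of which 20 were tested. In the left lungs at 3 h 7 rose and 0 fell by limma (35% and 0%, against 13.5% and 24.1% of all tested genes), with a median of 0.18. Zfand2a, which encodes the arsenite-inducible protein AIRAP that binds stressed proteasomes, rose by 3.09 ± 0.22 (adjusted p = 1.3e-07 by limma), with a mean signal of 2367 in the left lungs at 3 h, against 239.3 in control lungs. Bag3, a chaperone partner that routes proteins to autophagy, rose by 1.71 ± 0.19, and Zfand5, Ufd1, Txnl1 and Rad23b, which encode proteins that bring substrates to the proteasome or bind it, rose by 0.42 to 0.56. In the right lungs at 3 h 5 rose (25%, against 7.75% of all tested genes), among them Pomp, which encodes the maturation factor of the core, by 0.33 ± 0.10 (adjusted p = 0.027 by limma). At 30 min 3 rose on the left (15%, against 8.65%) and 2 on the right (10%, against 5.93%). Zfand2a (2.19 ± 0.26) and Bag3 (1.81 ± 0.22) were also higher in left than in right lungs at 3 h, and their left-right difference was larger at 3 h than at 30 min, by 1.91 ± 0.37 and 1.79 ± 0.31 (adjusted p = 0.037 and 0.021 by limma).

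Heat shock chaperones, 18 tested of 21, had larger differences than the proteasome genes in the clamped lung. At 3 h 16 rose and 1 fell in the left lungs (88.9% and 5.56%, where 13.5% and 24.1% of all tested genes did), with a median of 1.11, and 2 rose and 3 fell in the right lungs (11.1% and 16.7%, where 7.75% and 12.6% did), with a median of 0.01. The left mean lay above the right in all 18 at 3 h and 12 of them passed, with a median of 0.98, where the proteasome genes had a median of -0.07 and 0 calls. Hspa1a, which encodes HSP70, stood at 3.90 ± 0.31 in left over right lungs at 3 h (adjusted p = 1.9e-06 by limma).

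Of 20 regulators of proteasome genes 16 were tested, and 4 rose and 5 fell in the left lungs at 3 h (25% and 31.2%, where 13.5% and 24.1% of all tested genes did). Stat3, a factor activated by cytokines, rose by 1.37 ± 0.15, and Mafk, a small MAF partner of NRF1 and NRF2, rose by 1.21 ± 0.13. Nfya, which encodes a subunit of the factor that binds CCAAT, fell there (-0.71 ± 0.13) and in the right lungs at 3 h (-1.19 ± 0.13). Foxo1 (-1.79 ± 0.17) and Creb1 (-1.72 ± 0.26), which encode transcription factors, fell as well. In the left lungs at 30 min 4 rose and 4 fell (25% each, against 8.65% and 9.51% of all tested genes). In the right lungs 2 rose and 4 fell at 3 h (12.5% and 25%, against 7.75% and 12.6%). At 30 min 3 rose and 4 fell there (18.8% and 25%, against 5.93% and 6.3%). Stat3 stood at 0.94, 0.95 and 0.72 in these groups. Foxo1 stood at -1.99 and -1.63 in the right lungs at 3 h and 30 min, and Creb1 at -1.78 in the left at 30 min. Nfe2l1 itself stood at 0.06 ± 0.11 in the left lungs at 3 h, with an adjusted p of 0.69 by limma, and Nfe2l2, which encodes the oxidant-activated factor NRF2, rose there by 0.55 ± 0.17 (adjusted p = 0.017). These last 2 genes were named after their values were seen.

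Class I antigen processing genes, 12 tested of 17, passed at shares of 16.7% higher and 8.33% lower in the left lungs at 3 h, where 13.5% and 24.1% of all tested genes did. There 2 rose, Tap2, a chain of the peptide transporter (0.54 ± 0.15), and the chaperone Calr (0.34 ± 0.10), and 1 fell, the class I gene RT1-S3 (-0.45 ± 0.15). In the right lungs at 3 h 0 rose and 1 fell (8.33%, against 12.6% of all tested genes), the peptide trimming enzyme gene Erap1 (-0.56 ± 0.11). Of 25 interferon response genes 18 were tested, and 6 rose and 1 fell in the left lungs at 3 h (33.3% and 5.56%, where 13.5% and 24.1% of all tested genes did). In the right lungs at 3 h 1 rose (5.56%, against 7.75%) and 0 fell. At 30 min 5 rose on the left (27.8%, against 8.65%) and 3 on the right (16.7%, against 5.93%), and 0 fell. In the left lungs at 3 h the 18 differences, 13 positive and 5 negative, ran from -0.58 for Mx1 to 1.33 for Ifit3. Cxcl10, which encodes an interferon-induced chemokine, rose there by 1.31 ± 0.29. Irf1, a factor known to induce Psmb9, was higher in left than in right lungs by 0.61 ± 0.15 (adjusted p = 0.038 by limma).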

How the data were processed

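The deposited values are probe set signals, an intensity on a linear scale, made with MAS5 per the submitters' processing notes (its version is not given). GeneSpring 7.2 is named in the series' design text. Each array's trimmed mean was 500.1, so no scaling was added. Of 15923 probe sets, 57 controls were left out. The platform annotation gave 1 symbol for 12783, several for 312 and none for 2771. All 43 members matched the RefSeq table by Entrez identifier, with 0 symbols changed.

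Values were analysed as log2(signal + 25). Testing required a signal over 173.6, the 40th percentile, on 3 or more arrays, which 10533 probe sets met. limma 3.58.1 in R 4.3.3 (lmFit, eBayes) was fitted to 5 group means over 18 arrays, two-sided, with Benjamini-Hochberg adjustment per comparison and a threshold of 0.05. The script was tested on simulated data. Promoters were searched in Python 3.11.15. A log2 fold on this scale understates changes of low genes, and the number of arrays limits precision.

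The members and gene lists were chosen with earlier results of these data known. Named were the immunoproteasome subunits, their standard counterparts, Psme1, Psme2, every member called in a comparison, extremes of ranges and, per list, called genes up to the 6 of smallest adjusted p. Left and right lungs of one time came from the same rats, but the labels do not tie replicate numbers to rats. The deviations of same-numbered lungs from their group means had correlations of 0.12 to 0.31 at 30 min, against -0.29 to 0.1 for different numbers. After 3 h these ranges were -0.17 to 0.07 and -0.24 to 0.34. With 3 lungs a side, these values do not establish which lungs came from the same rat. The alternatives were other pseudocounts, no filter, median centring, quantile normalization, fits on the compared groups, the mean of probe sets, the actin ratio as a covariate or its high arrays left out, the replicate block, each array left out and, added after seeing the data, the cardiac marker mean as a covariate.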

Additional observations from a re-analysis of the deposited data

Results flagged for a closer look

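Among the 6 control lungs, 3 of the 43 proteasome genes had an array that stood apart from the others, judged by its gap to the nearest array as a share of the whole range. Chance flags about 1 in 20 such groups. Psma7 had a signal of 1101.7 in control replicate 1, against 1412.4 to 1598.7 in the other controls, a gap of 0.667 of the range. Psmb1 had 2202.3 in control replicate 6, against 2343.1 to 2429.3, a gap of 0.632. Psmg3 had 485.7 in control replicate 5, against 303.1 to 325.9, a gap of 0.848.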

How the results depend on the processing

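Each of the 30 called differences kept its direction in every alternative run. Members that did not pass could turn sign: under median centring 9 of 43 did in the left lungs at 3 h, among them Psmb8 (0.05, against -0.12 as deposited) and Psmb3 (0.11, against -0.05), and under quantile normalization 4 did. With each array centred on its median, 20 members passed in the left lungs at 3 h (18 higher, 2 lower) in place of 11. In the right lungs at 3 h 15 passed, all higher, in place of 10, and the counts in the other comparisons stayed within 1.5 times. In the left lungs at 30 min against control, 1 passed with the actin ratio as a covariate, in place of 4. Leaving out the arrays of high ratio leaves 1 left lung at 30 min, so counts with that group are not given for this setting. Between the left lungs at 3 h and 30 min, in place of 2, 0 passed with the actin covariate or with only these groups in the fit, and 1 with no filter or with quantile normalization. In the right lungs at 3 h 5 passed with the cardiac covariate, in place of 10. With 1 array left out, counts ran from 6 to 17 (left 3 h), 2 to 5 (left 30 min), 5 to 11 (right 3 h), 2 to 3 (right 30 min) and 0 to 3 (left 3 h against 30 min), and stayed at 0 in the other 4 comparisons by limma. Left at 3 h was lowest without its replicate 1 and highest without its replicate 3, left at 30 min lowest without its replicate 3, and right at 3 h lowest without its replicate 2. The 2 calls over time were both lost without left replicate 1 or 2 at 3 h, or left replicate 1 or 3 at 30 min. With the replicate number as a block, 0 members passed between left and right at either time or for the change of that difference, as in the main fit. The labels do not tie these numbers to rats, so the effect of the true pairing was not tested. The calls for Psmd13, Psmd8, Psmd9, Psme4 and Psmg2 (left 3 h), for Psma2, Psma6, Psmb1 and Psmd9 (right 3 h) and for Psmd13 (right 30 min) held in all 19 alternatives. Causes of the other losses were not tested.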
